A study of Homo sapiens with 79 samples.

Results

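The replication-dependent histone mRNAs were taken as the 75 rows, of 48453 in the deposited gene table, whose symbol begins with HIST1H, HIST2H, HIST3H or HIST4H. Of 89 such symbols, 14 that mark a pseudogene were left out. By symbol the 75 genes are 6 linker histone (H1), 17 H2A, 23 H2B, 14 H3 and 15 H4 genes, and 55 of them belong to the HIST1 cluster on chromosome 6. The annotation types 4 of the H2B genes kept by this rule, HIST2H2BA, HIST2H2BC, HIST2H2BD and HIST3H2BA, as pseudogenes. RNA was measured by fRIP-seq, in which cells are crosslinked lightly with formaldehyde, sonicated and lysed, 1 protein is immunoprecipitated and the RNA that comes with it is sequenced. All 79 libraries came from K562, an established human leukemia cell line of erythroid character, and all cells were crosslinked in the same way. The 24 groups are immunoprecipitations (fRIPs) with antibodies to the RNA-binding proteins PABP, HUR, IMP1, HNRNPU, HNRNPH1 and ADAR, the remodelers CHD7, CHD4 and CHD1, the histone-modifying or heterochromatin proteins SUZ12, EZH2, WDR5, RBBP5, PHF8, LSD1, HDAC1, PCAF, CBP, CBX3 and phosphorylated CBX3 (phospho-CBX3), and to DNMT1, STAG2, CTCF and NUP98, with 3 libraries each for 22 proteins and 2 each for EZH2 and STAG2. The reference is 9 libraries of input RNA in 3 numbered sets of 3. Each antibody stands for 1 protein and each group for 1 line, so antibody and protein cannot be told apart.

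Replication-dependent histone mRNAs supply the histones that package newly copied DNA, and they accumulate in S phase. They carry no introns and normally end in a conserved stem-loop in place of a poly(A) tail. The stem-loop is bound by SLBP, and the U7 snRNP with its LSM10 and LSM11 proteins directs the cleavage just after it. Some of these genes can also yield longer, polyadenylated transcripts that read past the stem-loop.

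Of the 75 genes, 71 were matched to the GENCODE annotation of GRCh37, 40 by identifier and 31 by an earlier symbol, and 67 of the 71 held a 16-base stem-loop within 100 bases on either side of the annotated transcript end. The same search, on the transcribed strand, found a stem-loop in 394 of 19766 other protein-coding genes (1.99%). The search looked for GGNNNNTNTNNNNNCC, where N is any base, with at least 5 of the 6 stem positions paired (G with T allowed), so it describes letters and not a working site. The 67 stem-loops came in 10 versions, of which 1 was shared by 38 genes and 2 others by 9 genes each. The stretches shown here belong to genes whose RNA is followed below, with the 16 bases of the stem-loop in capitals.
HIST1H1C (linker histone, chr6:26055967-26055992, minus strand): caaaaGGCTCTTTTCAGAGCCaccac
HIST1H3B (H3, chr6:26031820-26031845, minus strand): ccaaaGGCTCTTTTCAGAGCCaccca
HIST1H2AC (H2A, chr6:26124892-26124917, plus strand): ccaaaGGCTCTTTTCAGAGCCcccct
HIST1H2BJ (H2B, chr6:27100095-27100120, minus strand): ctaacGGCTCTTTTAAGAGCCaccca
HIST1H2BK (H2B, chr6:27114140-27114165, minus strand): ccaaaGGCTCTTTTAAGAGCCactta
HIST1H4C (H4, chr6:26104540-26104565, plus strand): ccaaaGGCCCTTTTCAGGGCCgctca
HIST1H4H (H4, chr6:26285354-26285379, minus strand): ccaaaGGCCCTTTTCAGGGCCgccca
HIST2H2AC (H2A, chr1:149858936-149858961, plus strand): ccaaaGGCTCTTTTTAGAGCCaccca
HIST3H2A (H2A, chr1:228645065-228645090, minus strand): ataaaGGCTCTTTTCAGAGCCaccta
The version of HIST1H1C, HIST1H3B, HIST1H2AC and HIST3H2A was the one shared by 38 genes, and those of HIST1H4C and HIST1H2BJ were each shared by 9. All 9 stem-loops lie within 100 bases of an annotated transcript end, and the HIST1H1C stretch runs just past that end. Their place relative to the coding sequence was not checked.

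Values are FPKM, fragments counted per transcript length and sequencing depth, which the authors set on 1 common scale across libraries. The smallest steps between low values put the depth at about 1940000 to 58800000 fragments a library, the inputs at 11900000 to 30600000 and ADAR lowest. In input the erythroid genes GATA1, HBG2 and TFRC were at no less than 63.9, 178 and 228 FPKM in any library. Of the other erythroid genes chosen, HBZ averaged only 8.83 FPKM in input and was as low as 0.517 FPKM. The rest stayed at or above 24.8 FPKM in every input library. The T cell, B cell, liver and fibroblast genes CD3E, MS4A1, ALB and COL1A1 averaged under 1 FPKM in input. PTPRC, which marks leukocytes in general, averaged 65.0 FPKM. All p-values measure the spread between libraries of 1 cell line.

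Histone mRNAs were abundant in input. The mean over the 9 inputs reached 100 FPKM for 26 of the 75 genes, 10 FPKM for 46 and 1 FPKM for 53. HIST1H1C, a linker histone gene at chr6:26055968-26056698 (ENSG00000187837.2), was the highest, at 1646 ± 518 FPKM (SD, n = 9), followed by HIST1H3B at 524 ± 253 FPKM and HIST1H1E at 457 ± 161 FPKM. In 22 genes the mean was under 1 FPKM. A gene was tested where 2 or more libraries reached 1 FPKM, as 66 of the 75 did. The other 9 were HIST1H2AJ, HIST1H4F, HIST1H4G, HIST2H2AA4, HIST2H2BD, HIST2H3A, HIST2H3C, HIST2H4A and HIST2H4B, several of which are near-identical copies of a neighbour. For 20 of 71 genes at least 50% of all 31-base words also occur in another gene, on either strand and with overlapping genes included. Their reads could be split between genes, so their own values are uncertain.

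The 3 input sets were not alike for these mRNAs. The summed FPKM of the 75 genes was 3984 ± 238 in set 1, 9496 ± 505 in set 2 and 11779 ± 442 in set 3 (SD, n = 3 each), and no library of one set fell within the range of another. HIST1H3B, one of the H3 genes, was at 203, 187 and 187 FPKM in set 1, at 639, 669 and 664 FPKM in set 2 and at 650, 752 and 769 FPKM in set 3. By limma, 36 of the 66 tested genes were higher in set 2 than in set 1 and 0 lower, beside 0.511% and 0.161% of all 25442 genes tested. In set 3, 42 were higher than in set 1 and 0 lower, beside 0.562% and 0.751% of all genes. At an unadjusted p under 0.05, 0 were lower in set 2 and 1 in set 3. The median log2 difference of the 66 genes was 1.16 for set 2 and 1.44 for set 3, where the median over all genes was -0.10 in both. The sets carry no date or other label, so a difference between cultures and a difference in library making cannot be told apart.

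**Figure D1:**
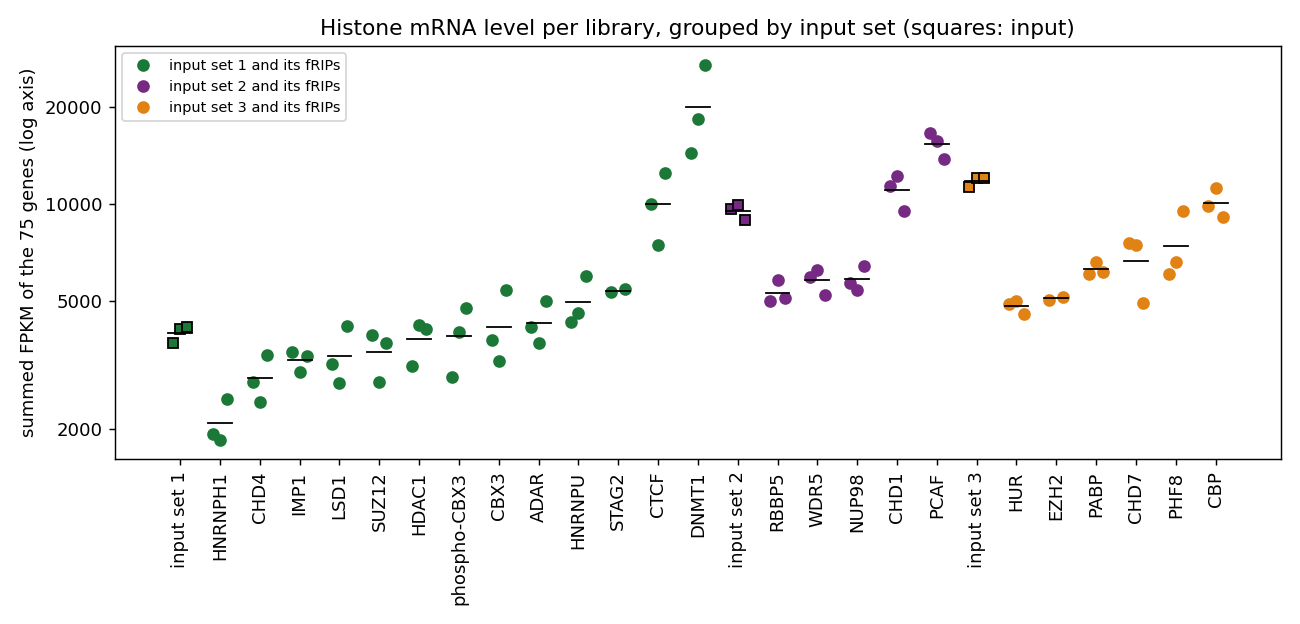
Summed FPKM of the 75 histone genes (log axis) in each library, with 1 point per library, a bar at the group mean and squares for input; groups are placed beside the input set they were matched to. The mean of input set 1 is 3984 FPKM, that of set 2 9496 FPKM and that of set 3 11779 FPKM, and DNMT1 spans 14375 to 27080 FPKM.

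Which input a fRIP is set against therefore changed its result, and every comparison was made in both ways. The first used the mean of all 9 inputs. The second used the input set nearest to the authors' mean input value for that protein in the deposited comparisons, since the labels do not pair proteins with sets. The median absolute log2 difference over genes was 0.0236 to 0.146 to the nearest set and 0.153 to 0.327 to the next, and the match was least distinct for PHF8 (0.141 against 0.193) and CHD1 (0.111 against 0.178). Set 1 was matched to the RNA-binding proteins IMP1, HNRNPU, HNRNPH1 and ADAR and to DNMT1, CHD4, SUZ12, LSD1, HDAC1, phospho-CBX3, CBX3, STAG2 and CTCF, set 2 to CHD1, NUP98, PCAF, RBBP5 and WDR5, and set 3 to CBP, CHD7, EZH2, HUR, PABP and PHF8. Fold changes are differences in log2(FPKM + 1), so those of genes at low levels come out too small. Enrichment or depletion was called where limma gave a Benjamini-Hochberg adjusted p under 0.05 together with a change beyond 2-fold.

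**Figure D2:**
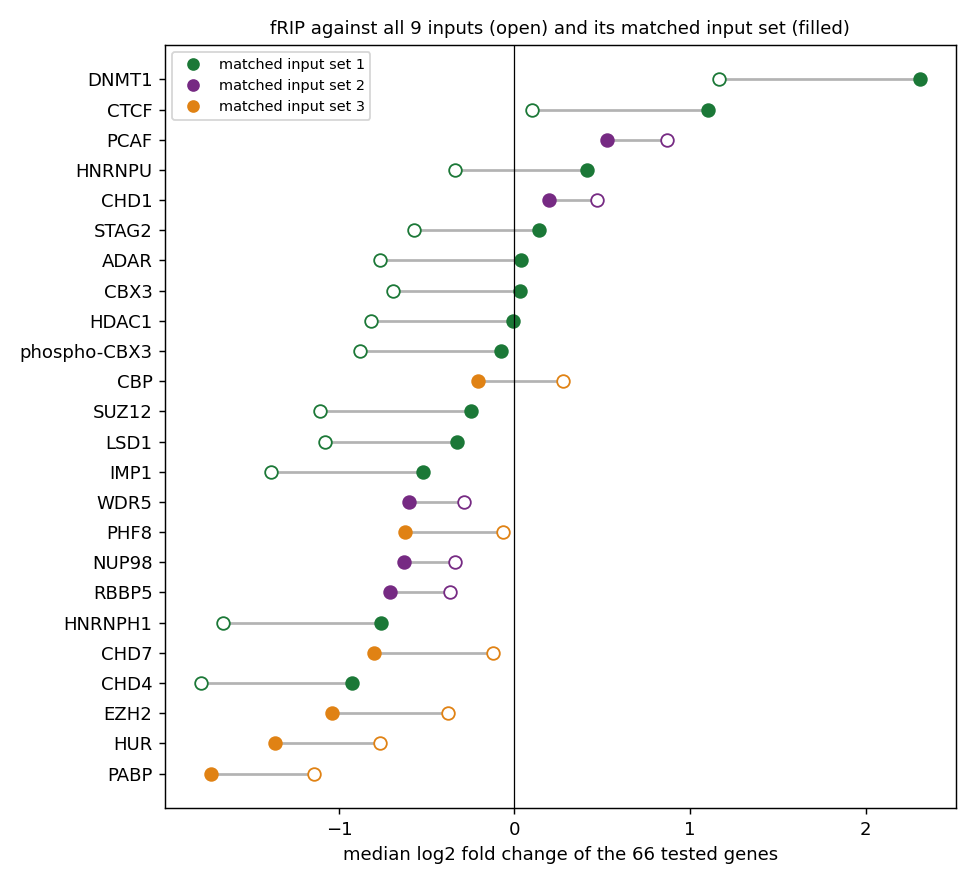
Median log2 fold change over the 66 tested genes for each of the 24 fRIPs against all 9 inputs (open circles) and against the matched input set (filled circles), colored by set. DNMT1 stands highest on both, while the 13 fRIPs matched to set 1 all move to the right. PABP, HUR, CHD4 and HNRNPH1 are among many fRIPs that stay below 0 on both, as are IMP1, EZH2, LSD1 and SUZ12.

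The fRIP of DNMT1, the maintenance DNA methyltransferase, held the most histone mRNA on average. The summed level of the 75 genes was 19955 ± 6492 FPKM (SD, n = 3), from 14375 to 27080 FPKM. With PCAF it was 15354 ± 1434 FPKM (SD, n = 3), from 13773 to 16571 FPKM, so these ranges overlapped. Against all inputs 39 of the 66 genes were enriched and 0 depleted (0 at an unadjusted p under 0.05 in limma), beside 9.56% of all genes enriched, and against input set 1 the count was 49, beside 10.5%, with all 39 among them. The median log2 fold change was 1.17 and 2.31, where the median over all genes was 0.05 and 0.01. Against all inputs the enriched genes were 14 of 15 H2A, 7 of 11 H4, 3 of 6 H1, 11 of 22 H2B and 4 of 12 H3 genes. The 3 libraries were uneven, with medians from 0.79 to 1.77, and without replicate 3 the count against all inputs fell to 24.

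HIST1H1C was at 2534, 3795 and 3734 FPKM in the DNMT1 libraries, against 938, 1068 and 1078 in input set 1, 1887, 1894 and 1445 in set 2 and 2074, 2245 and 2183 in set 3. All 3 DNMT1 libraries lay above all 9 inputs. HIST1H1C rose by 1.07 ± 0.20 on the log2 scale (SE, adjusted p = 1.04e-05, limma). Among the largest changes was HIST1H4E (H4, chr6:26204838-26205249), at 194, 294 and 355 FPKM where the 9 inputs spanned 31.2 to 107 FPKM, a log2 fold change of 2.16 ± 0.24 (adjusted p = 2.79e-11, limma). HIST1H2BN, an H2B gene, was at 280, 322 and 365 FPKM against 43.8 to 106 FPKM in input, and HIST1H3F, an H3 gene, at 165, 192 and 406 FPKM against 19.8 to 95.0 FPKM. Both lay above every input library, with log2 fold changes of 2.13 and 2.12. HIST1H2AE (H2A) and HIST1H2BG (H2B), each among the 2 highest of its class in input, were enriched against both references, with log2 fold changes of 1.82 and 1.43 against all inputs. HIST1H4C was not called against all inputs (0.91, 224, 265 and 388 FPKM) and was enriched against set 1 (1.98).

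The fRIP of CHD4, the remodeling ATPase of the NuRD complex, had the lowest median of the 24 against all inputs. Against all inputs 40 of 66 genes were depleted and 0 enriched (0 at an unadjusted p under 0.05 in limma), beside 9.79% of all genes depleted. Against set 1 there were 32 depleted, beside 14.5%, and 31 of them were the same genes. The median was -1.79 against all inputs and -0.93 against set 1, where all genes had -0.12 and -0.17. HIST1H3B was at 44.3, 26 and 34.3 FPKM in CHD4, below each of the 9 inputs including those of set 1, with a log2 fold change of -3.68 ± 0.33 against all inputs (adjusted p = 5.55e-14, limma) and -2.46 against set 1. HIST1H4C, an H4 gene at chr6:26104161-26104565, was at 14.5, 12.5 and 11 FPKM against 64.4 to 81.2 FPKM in set 1. It fell by 3.48 on the log2 scale against all inputs and by 2.42 against set 1. The lowest value was that of HIST1H2AD, at 8.49, 1.18 and 4.19 FPKM, although 84.6% of its 31-base words are shared with other genes. Against set 1, 2 genes were enriched, beside 5.16% of all genes. These were HIST1H2AC (298, 315 and 387 FPKM, against 139 to 162 FPKM in set 1, log2 fold change 1.11) and HIST3H2A (101, 137 and 129 FPKM, against 41 to 50.3 FPKM, log2 fold change 1.38).

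PABP binds the poly(A) tail of mRNAs, and its fRIP divided the histone genes. Against all inputs 35 of 66 genes were depleted, beside 14.7% of all genes, and 3 enriched, beside 11.1%. Against input set 3 there were 42 depleted, beside 12%, and 1 enriched, beside 9.57%, and all 35 were among the 42. The medians were -1.14 and -1.73, where all genes had -0.15 and -0.09. HIST1H1D (H1) was at 14.1, 18.2 and 13.2 FPKM where the 9 inputs spanned 63.2 to 184 FPKM, a log2 fold change of -2.91 ± 0.29 (adjusted p = 3.62e-13, limma). HIST1H1B (H1, 18.5, 24.2 and 30.4 FPKM) and HIST1H3F (6.53, 8.75 and 9.55 FPKM) likewise lay below all inputs, with log2 fold changes of -2.87 and -2.56. The most abundant member did not share this: HIST1H1C was at 1837, 2203 and 1756 FPKM in PABP, overlapping the inputs, with log2 fold changes of 0.30 (adjusted p = 0.219, limma) and -0.17 against set 3. HIST1H1E, the next linker histone gene by level, was at 78.8, 99.9 and 107 FPKM against 208 to 641 FPKM in input, a log2 fold change of -2.16.

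The genes enriched with PABP against all inputs were HIST1H2BK, HIST3H2A and HIST1H2BJ. HIST1H2BK, an H2B gene at chr6:27114140-27114634, was at 1450, 1405 and 1335 FPKM where the inputs spanned 189 to 468 FPKM. No PABP library overlapped an input library, and the gene was the 1 called against both references (2.11 ± 0.24, adjusted p = 3e-11, and 1.73 against set 3, adjusted p = 2.6e-07, limma). Its 31-base words are shared with other genes for 71.0%, so reads of a copy could be counted to it. HIST3H2A was at 227, 247 and 294 FPKM against 41 to 142 FPKM in input, with log2 fold changes of 1.60 and 0.89, and HIST1H2BJ at 446, 439 and 439 FPKM against 88.2 to 330 FPKM, with 1.05 and 0.45. Both lay above every input library and were not called against set 3.

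HUR, an RNA-binding protein that recognizes AU-rich elements in mRNAs, gave 26 depleted genes of 66 against all inputs, beside 6.93% of all genes, and 0 enriched. The same 26 were among 40 depleted against set 3, beside 7.72%, where 1 gene was enriched, beside 8.57%. That gene, HIST1H2BE, named after its values were seen, stood at only 3.10, 4.71 and 4.92 FPKM against 0.738 to 1.73 FPKM in set 3 (log2 fold change 1.25). At an unadjusted p under 0.05 in limma, 4 were higher against all inputs. Depletion was called for 9 of 15 H2A and 6 of 11 H4 genes and for 0 of 6 H1 genes against all inputs. HIST1H4A (H4) was at 18.8, 14.4 and 17.3 FPKM in HUR and 30.1 to 125 FPKM in input, a log2 fold change of -1.99 ± 0.37 (adjusted p = 1.11e-05, limma), and HIST1H2AI (H2A) was at 36.7, 37.1 and 33.3 FPKM, a change of -1.90. HIST1H4K had a change of -2.46, but it stood at only 0, 1.22 and 0 FPKM in HUR and at most 10.7 FPKM in input. HIST1H1C (1578, 1653 and 1504 FPKM) overlapped the inputs, with 0.01 against all inputs and -0.46 against set 3.

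HNRNPH1, which binds G-rich RNA and takes part in splicing, gave unlike values for the histone classes. Against all inputs 41 of 66 genes were depleted, beside 7.9% of all genes, and 2 enriched, beside 24.5%. Against set 1 there were 24 depleted, beside 6.33%, all among the 41, and 4 enriched, beside 19.8%. The 6 H1 genes had a median of -2.44 against all inputs and -1.83 against set 1, while the 11 H4 genes had -0.10 and 0.26, where the median over all genes was 0.34 and 0.25. HIST1H1C was at 178, 163 and 224 FPKM, below every input library by several fold, with a log2 fold change of -3.07 ± 0.20 (adjusted p = 2.95e-20, limma), and HIST1H1B was at 16, 13.5 and 24.4 FPKM with -3.30. HIST1H3H, an H3 gene, was at 22.9, 24.1 and 43.5 FPKM against 92.5 to 558 FPKM in input, a change of -3.27.

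Of the 11 H4 genes, 4 were depleted and 1 enriched with HNRNPH1 against all inputs, and 0 depleted and 3 enriched against set 1, where at least 3 of each other class were depleted. Over all genes 19.8% were enriched and 6.33% depleted against set 1. HIST1H4A was at 217, 222 and 415 FPKM, above every input library (30.1 to 125 FPKM), with log2 fold changes of 1.96 ± 0.37 against all inputs (adjusted p = 6.22e-06, limma) and 3.09 against set 1. The same gene was among the most depleted with HUR. HIST1H4H, at 230, 243 and 234 FPKM, lay above every input (74.0 to 186 FPKM) with 0.87 and 1.58, and was called against set 1 only. HIST1H4B (91.0, 103 and 121 FPKM) was enriched against set 1, by 1.25, and overlapped the full set of inputs. HIST1H4C did not pass, at 94.6, 90.0 and 111 FPKM. HIST3H3, a little expressed H3 gene, was the other gene enriched against all inputs (2.15). HIST1H4A and HIST3H3 as enriched genes, and HIST1H4B, were named after their values were seen.

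For the other fRIPs matched to set 1, most of the depletion called against all inputs was not called against that set. Against all inputs, depleted genes numbered 42 for IMP1, an mRNA-binding protein (10.5% of all genes), 36 for the demethylase LSD1 (6.66%), 34 for the Polycomb subunit SUZ12 (8.6%), 28 for phospho-CBX3 (2.91%), 26 for HDAC1 (5.35%), 24 for ADAR (4.31%) and 20 for CBX3, a heterochromatin protein (3.65%). Against set 1 the same counts were 6 for IMP1 (13.8%), 7 for LSD1 (10.6%), 4 for SUZ12 (8.66%), 0 for phospho-CBX3 (4.44%), 0 for HDAC1 (3.33%), 2 for ADAR (2.21%) and 0 for CBX3 (3.9%). At an unadjusted p under 0.05 in limma, 28 genes were lower than in set 1 for IMP1, 20 for LSD1 and 13 for SUZ12. By the same measure 11 were lower for phospho-CBX3, 7 for HDAC1 and 5 each for ADAR and CBX3. Without replicate 1 of phospho-CBX3 its count against all inputs was 17. The log2 fold change of HIST1H3B with SUZ12 was -2.17 against all inputs and -0.95 against set 1. HIST1H3B and HIST1H4C were depleted against both references with LSD1 (-2.48 and -1.26 for HIST1H3B, -2.31 and -1.24 for HIST1H4C), and HIST1H4C also with SUZ12 (-2.23 and -1.16). Both genes likewise held with IMP1, where HIST1H3B was at 112, 81.8 and 84.0 FPKM and HIST1H4C at 36.3, 30.9 and 30.7 FPKM. In the ADAR fRIP, HIST3H2BB was depleted against both, at 0, 2.91 and 1.5 FPKM where set 1 held 9.86 to 10.3 FPKM. In these shallow libraries 1 fragment on 500 bases is worth 1.27 to 1.52 FPKM, so these values rest on very few fragments.

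A few genes were enriched with IMP1, HDAC1 and ADAR, all of which had more depleted than enriched genes against all inputs. With IMP1, HIST1H2BK (569, 452 and 620 FPKM) and HIST2H2BE (67.1, 61.4 and 77.2 FPKM) were the 2 genes enriched against set 1, beside 4.91% of all genes, by 1.31 and 1.21. With HDAC1, 3 genes were enriched against all inputs, beside 8.42% of all genes, and HIST1H1T, at 12.9, 16 and 24.8 FPKM against 2.13 to 5.16 FPKM in input, was called against both references (1.90 and 1.67). With ADAR, the adenosine deaminase that edits double-stranded RNA, 8 genes were enriched against all inputs, beside 26.6% of all genes, and 9 against set 1, beside 23.7%, which is below the share of all genes. When each library was centred on its median, 3 were enriched against all inputs. With the largest change against set 1 stood HIST2H2AB (H2A, chr1:149859019-149859515), at 186, 173 and 235 FPKM, above all inputs (19.0 to 114 FPKM), with 1.74 and 3.09. HIST1H4I was at 82.2, 66 and 108 FPKM against 17.1 to 27.2 FPKM in input, with 1.90 and 2.10. HIST3H3 had the largest change against all inputs, 2.74, at 12.5, 18.6 and 5.46 FPKM where no input passed 1.35 FPKM. The shallow ADAR libraries, of 1940000 to 2310000 fragments, leave the other enriched genes, such as HIST1H2BM at 5.26, 1.48 and 13.8 FPKM, resting on few fragments. HIST1H1T, HIST2H2BE, HIST1H4I, HIST3H3 and HIST1H2BM were named after their values were seen.

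The insulator protein CTCF and the acetyltransferase PCAF stood beside DNMT1 on the high side, each depending on the reference. CTCF had 0 genes called against all inputs (1.21% of all genes in either direction), with 7 higher at an unadjusted p under 0.05 in limma, and 35 enriched against set 1, where only 0.401% of all genes were. HIST1H1C was at 2698, 2383 and 3425 FPKM with CTCF, above all 9 inputs, with 0.84 against all inputs and 1.45 against set 1. PCAF had 18 enriched genes against all inputs, beside 0.515% of all genes, with a median of 0.87, and 2 against set 2, beside 0.0943%, with a median of 0.53. Those 2 were HIST1H1E, at 1258, 1260 and 1028 FPKM where set 2 held 527 to 571 FPKM (1.46 and 1.09), and HIST1H2AH, at 524, 553 and 606 FPKM where set 2 held 229 to 291 FPKM (1.65 and 1.06). HIST1H4B (400, 262 and 216 FPKM) was enriched with PCAF against all inputs only. The PCAF count against all inputs was 11 without any 1 of the set 1 libraries, 28 without replicate 2 or 3 of set 3 and 29 without replicate 2 of set 2.

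The remaining fRIPs had at most 11 calls each against all inputs. In either direction there were 11 genes for STAG2 (4.34% of all genes), 9 for EZH2 (19.6%), 7 for HNRNPU (15.7%), 3 for NUP98 (5.38%), 2 for CHD1 (1.43%), 1 each for CBP (12.9%), CHD7 (1.89%) and WDR5 (10.6%), and 0 for PHF8 (4.9%) and RBBP5 (3.01%). With each library centred on its own median the HNRNPU count became 29, of which 28 were depleted, where it was 3 enriched and 4 depleted without centring. Centring also took the median over all genes for HNRNPU from 0.16 to -0.43, and the share of all genes then called is not given here. The STAG2 count became 0 in a fit of its own libraries and the inputs alone. At an unadjusted p under 0.05 in limma, 7 genes were higher and 8 lower for PHF8, and 17 lower for RBBP5. Against the matched sets 2 and 3, which held more histone mRNA than set 1, depletion was called for 33 genes with EZH2 (7.67%), 16 with CHD7 (1.19%), 15 with PHF8 (1.67%), 13 with NUP98 (3.27%), 8 with RBBP5 (0.99%) and 8 with WDR5 (4.95%). HIST1H4C shows this for EZH2, at 42.4 and 57.8 FPKM where set 3 held 234 to 272 FPKM, with -1.59 against all inputs and -2.30 against set 3. Against set 1, 7 genes were enriched with HNRNPU (8.21%) and 4 with STAG2 (1.05%).

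Transcript models differed within genes. Of the 75 genes, 27 have in the deposited table only models that end at the stem-loop, 14 have a model that lacks it at its end, and the other 34 have a model that could not be matched, as do 3 of the 14. In PABP the 23 tested genes of the first kind had a median log2 fold change of -2.40 against set 3, with 19 depleted, and the 14 of the second kind had -0.44, with 5 depleted, beside 12% of all genes. In CHD4 the medians against set 1 were -1.47 and -0.38, with 16 and 3 depleted, beside 14.5% of all genes. In HUR they were closer, at -1.48 and -1.43, and in DNMT1 at 2.47 and 2.21. These groups share genes of several classes and were not tested against each other.

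For HIST1H2AC the deposited isoform table holds a model of 519 bases that ends at the stem-loop shown above and 2 spliced models of 1668 and 1462 bases that do not. The stem-loop model was at 58.2, 42.3 and 46.4 FPKM in input set 1, 221, 178 and 203 in set 2 and 292, 333 and 373 in set 3. In DNMT1 it stood at 540, 701 and 1194 FPKM, above every input, and in all 3 libraries of PABP and of CHD4 it was estimated at under 0.001 FPKM. The longer of the spliced models was at 265, 303 and 222 FPKM in PABP and 184, 179 and 251 FPKM in CHD4, where the 9 inputs spanned 61.3 to 153 FPKM. The gene total of HIST1H2AC was not called with PABP against either reference (0.27 and -0.51), while the models that made it up differed from those in input. How the authors' program shares reads between overlapping models was not tested, and an estimate near 0 can be a failed one.

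A like division was seen for HIST1H2BJ and HIST1H4H, but not for HIST1H3J. The HIST1H3J model that ends at the stem-loop was at 13.4 to 17.7 FPKM in PABP and 89.0 to 135 FPKM in set 3, and its spliced model was low as well, at 1.06 to 1.54 FPKM against 11.1 to 19.1 FPKM. No HIST1H2BN model was seen to end at a stem-loop. Its model not matched to the annotation was at 4.30 to 6.77 FPKM in PABP and 42.9 to 52.9 FPKM in set 3, and its spliced models were at 21.1 to 28.5 and 5.74 to 5.86 FPKM, against 37.3 to 45.5 and 5.91 to 8.00 FPKM. The HIST1H2BJ model that ends at the stem-loop was under 0.001 FPKM in every library of PABP, CHD4, IMP1 and ADAR, and at 227, 175 and 536 FPKM in DNMT1, where input sets 2 and 3 held 79 to 136 FPKM. In input set 1 it was at only 2.98, 0.00478 and 0.996 FPKM. A spliced model of 408 bases was at 213, 208 and 221 FPKM in PABP against 21.4 to 78.3 FPKM in input. For HIST1H4H the stem-loop model was under 0.001 FPKM in every library of PABP, CHD4 and IMP1, and at 187, 174 and 195 FPKM in HNRNPH1, above all inputs (26 to 142 FPKM). The other HIST1H4H model, not matched to the annotation, was at 90.6, 85.4 and 93.3 FPKM in PABP and 32.4 to 53.2 FPKM in input. For HIST1H2BC and HIST1H2BD the stem-loop models were lower in PABP than in input sets 2 and 3, although set 1, at 49.5 to 50.0 FPKM, overlapped PABP for HIST1H2BD and stood at 56.8 to 77.1 FPKM for HIST1H2BC (PABP against sets 2 and 3: 31.2 to 36.9 against 207 to 238 FPKM, and 44.4 to 51.1 against 136 to 165 FPKM), and the spliced models higher than nearly every input (64.8 to 80.6 against 20.9 to 70.6 FPKM, and 65.0 to 70.6 against 28.0 to 40.6 FPKM).

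**Figure D3:**
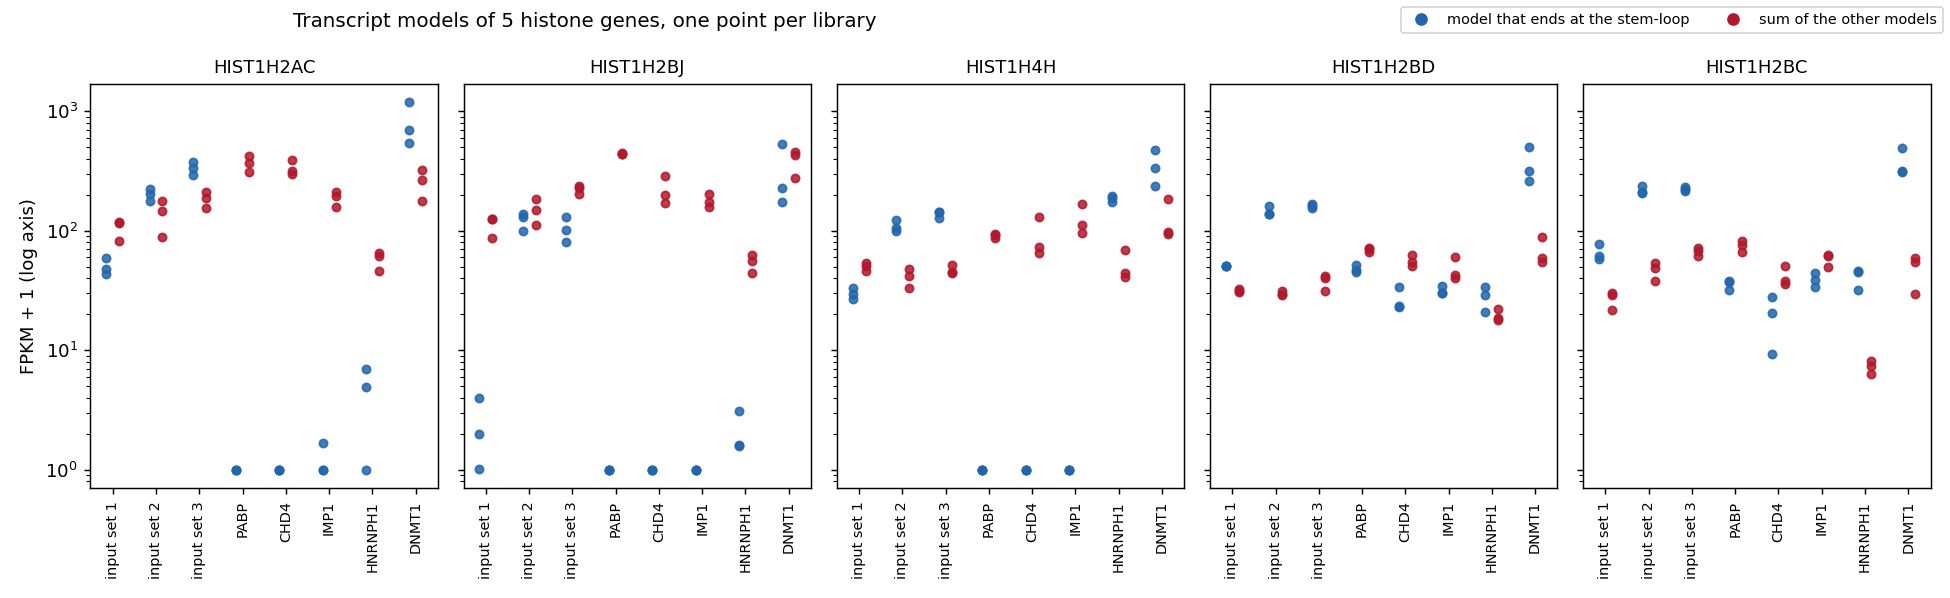
FPKM + 1 (log axis) of the models that end at the stem-loop (blue) and of the sum of the other models (red) for 5 genes, with 1 point per library, in the 3 input sets and 5 fRIPs. In PABP and CHD4 the blue points of HIST1H2AC, HIST1H2BJ and HIST1H4H sit at the floor while the red points do not, and in DNMT1 the blue points are at their highest.

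Some genes have 1 model that runs past the stem-loop. The model of HIST3H2A extends 390 bases beyond it, and that of HIST1H3H 769 bases. With PABP, HIST3H2A had log2 fold changes of 1.60 against all inputs, where it was enriched, and 0.89 against set 3, where it was not called. HIST1H3H, at 106, 133 and 120 FPKM where set 3 held 489 to 558 FPKM and set 1 92.5 to 119 FPKM, was depleted against both, with -1.26 and -2.15. HIST1H2BK has a model that ends at the stem-loop and a model not matched to the annotation, and of its input mean of 335 FPKM all but 3.92e-06 FPKM was given to the second.

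Histone genes listed as replication-independent variants, most of whose mRNAs carry a poly(A) tail, were set beside these. Of 11 replication-independent variant genes 8 were tested, and 7 of them were enriched with PABP against all inputs and against set 3, beside 11.1% and 9.57% of all genes, with medians of 1.54 and 1.34. With CHD4 their medians were 0.46 and 0.99, and 4 of 8 were enriched against set 1, beside 5.16%, among them CENPA, the centromeric H3 (log2 fold change 1.21 against all inputs). With DNMT1 the variants were also high, with 4 and 6 of 8 enriched, beside 9.56% and 10.5%, and medians of 1.07 and 1.46. Ribosomal protein mRNAs, which are likewise short and abundant, had 80 of 82 genes enriched with PABP against either reference, beside the same 11.1% and 9.57%, and medians of 2.05 and 1.91. They were depleted with HUR (65 of 82 against all inputs, beside 6.93%, median -2.02), with HNRNPH1 (68 of 82, beside 7.9%, median -2.10) and with DNMT1 (44 of 82, beside 6.88%, median -1.05). Both lists were thus low in HUR and HNRNPH1, while in DNMT1 the histone mRNAs were high and the ribosomal protein mRNAs low. Their lengths were not modelled, and the part of length in these values was not tested.

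**Figure D4:**
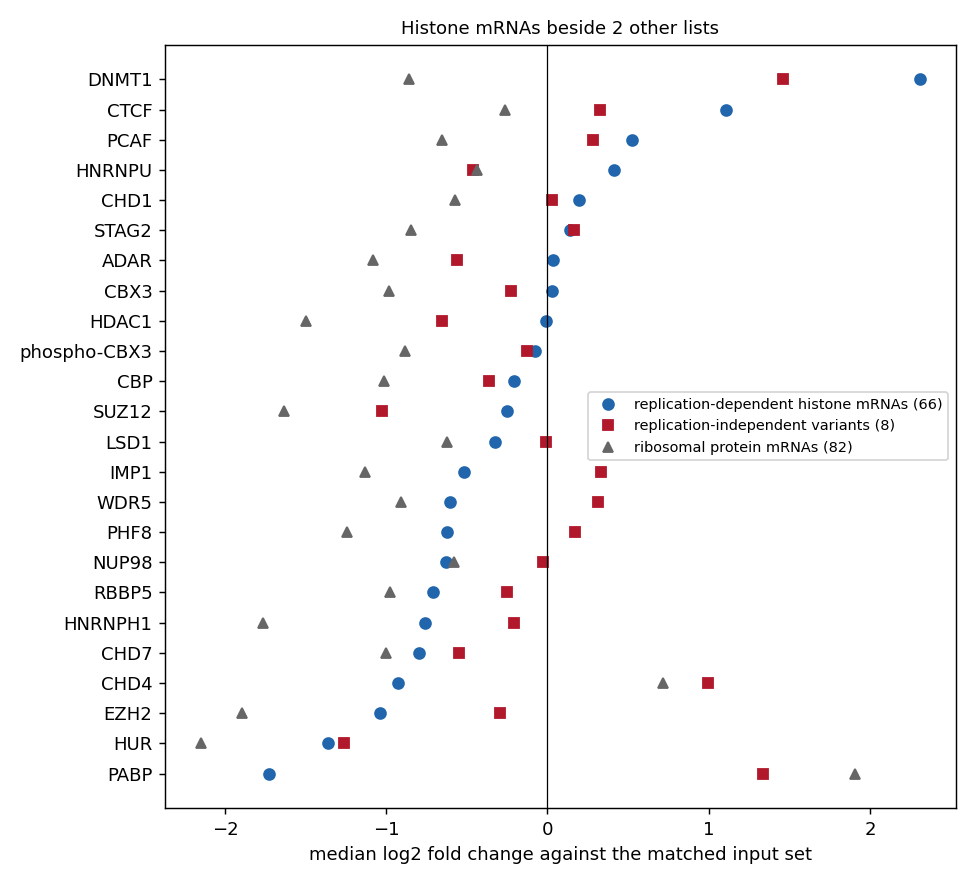
Median log2 fold change against the matched input set for the 66 tested replication-dependent histone genes, 8 replication-independent variants and 82 ribosomal protein genes in each of the 24 fRIPs. In PABP and CHD4 the histone genes lie below 0 and both other lists above it, and in DNMT1 the ribosomal protein genes lie below 0 while both histone lists lie above it.

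Also tested, against all inputs unless stated, were the mRNAs of 15 genes linked to histone mRNA, most of them processing or decay factors. SLBP, the stem-loop binding protein, was at 248 FPKM with WDR5 on average and 74.2 FPKM in input, a log2 fold change of 1.73 ± 0.16 (adjusted p = 1.49e-13, limma). LSM11 was enriched with ADAR, at 32.4 FPKM against 6.79 FPKM on average (2.11). LSM10 was enriched with CHD4 (1.14), and ZCCHC11, a terminal uridylyl transferase, was depleted there (-1.27). The most calls were made with SUZ12, at 5 enriched (beside 15.3% of all genes) and 3 depleted (beside 8.6%), among them ZCCHC11 with 2.33 and LSM11 with -1.39. With HNRNPH1 1 was enriched (beside 24.5%) and 5 depleted (beside 7.9%), with PABP 2 enriched (beside 11.1%) and 4 depleted (beside 14.7%), and with HDAC1 4 enriched (beside 8.42%) and 1 depleted (beside 5.35%). Against the matched input set SUZ12 had 5 enriched (13.4% of all genes) and 1 depleted (8.66%), and HNRNPH1 1 (19.8%) and 5 (6.33%). PABP then had 2 enriched (9.57%) and 3 depleted (12%), and HDAC1 2 (5.08%) and 0 (3.33%).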

How the data were processed

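The authors aligned reads with TopHat to hg19 and deposited FPKM for genes and isoforms, computed with Cuffnorm after base calling with CASAVA 1.4. Strand use and read filtering: not given in the sources used here. Overlapping and antisense genes can therefore not be told apart. The deposited comparison tables also hold fold changes and p-values, not used here; only their input values, as the authors' mean, served to match each protein to an input set (other values: group FPKM). Groups and set numbers came from the labels; the second STAG2 library has no labelled number. Members and lists were chosen with earlier results of these data known. Of the marker genes for other cell types, 1 is not reported here.

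The 25442 genes that reached 1 FPKM in 2 or more of 79 libraries were fitted as log2(FPKM + 1) in limma 3.58.1 (R 4.3.3) with an intensity trend, in 1 fit with a mean per protein and per reference, and p-values were Benjamini-Hochberg adjusted within each comparison over all genes; 3 libraries against 9 allow an exact permutation p of 0.00455 at the least. The script was tested on simulated data. Genes were named if among the 2 highest of their class in input, among up to 3 leading non-overlapping calls in a fRIP with at least 25% of members called one way, or holding a model without the stem-loop; list genes only where called. Same-numbered libraries of set 2 deviated together (mean correlation 0.320, 45 pairs, lowest 0.0877; every pair of CHD1, NUP98, PCAF and WDR5 over 0.1), those of sets 1 and 3 less (0.116 and 0.0316). Stem-loops were read from GENCODE 44 models on GRCh37. Depth was estimated from value steps, of which 95.8 to 99.7% came out whole within 0.15, and it limits precision; no intervals were formed. Alternatives tried were another pseudocount, other filters, centring, the matched input set, replicate blocks, fewer libraries and leaving out genes with shared sequence.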

Additional observations from a re-analysis of the deposited data

How the results depend on the processing

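Which input served as the reference was the choice that changed most. Against the matched input set in place of all 9 inputs, the median log2 fold change of the 66 genes was 0.036 for ADAR, -0.21 for CBP, 0.030 for CBX3, 0.19 for CHD1, -0.93 for CHD4, -0.80 for CHD7, 1.10 for CTCF, 2.31 for DNMT1, -1.04 for EZH2, -0.0077 for HDAC1, -0.76 for HNRNPH1, 0.42 for HNRNPU, -1.36 for HUR, -0.52 for IMP1, -0.32 for LSD1, -0.63 for NUP98, -1.73 for PABP, 0.53 for PCAF, -0.62 for PHF8, -0.078 for phospho-CBX3, -0.71 for RBBP5, 0.14 for STAG2, -0.25 for SUZ12 and -0.60 for WDR5. It changed sign for ADAR, CBP, CBX3, HNRNPU and STAG2. The number of genes called, in the leading direction or, where there was none, in either direction, became 2 for ADAR, 0 for CBX3, 0 for CHD1, 16 for CHD7, 35 for CTCF, 33 for EZH2, 0 for HDAC1, 24 for HNRNPH1, 40 for HUR, 6 for IMP1, 7 for LSD1, 13 for NUP98, 2 for PCAF, 15 for PHF8, 0 for phospho-CBX3, 8 for RBBP5, 5 for STAG2, 4 for SUZ12 and 8 for WDR5.

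After each library was centred on its own median, the all-gene median lay between -0.69 (ADAR) and 0.46 (PCAF). Without centring it was 0.29 for ADAR and -0.16 for PCAF. With centring the histone genes had medians of -1.74 for ADAR, 0.38 for CBP, -1.38 for CHD4, -0.21 for EZH2 and -1.11 for HDAC1. Their medians were -2.40 for HNRNPH1, -0.93 for HNRNPU, -1.02 for HUR, -0.93 for IMP1, -0.67 for LSD1 and 0.075 for NUP98. They were -0.65 for PABP, 1.48 for PCAF, -0.55 for RBBP5, -0.51 for STAG2 and 0.090 for WDR5. The sign changed for NUP98 and WDR5. The counts became 47 for ADAR, 29 for HNRNPU, 26 for IMP1, 23 for LSD1, 0 for NUP98, 53 for PCAF, 2 for PHF8, 3 for RBBP5 and 0 for WDR5. The share of all genes called under centring is not set beside these counts, and the median over all genes changed with them. The median of the processing and decay factors changed sign under centring in CHD4 (0.048), HUR (-0.12) and PABP (0.33). It also did so in ADAR (from 0.063 to -0.92), HNRNPU (-0.59), HDAC1 (-0.21), PHF8 (-0.20), RBBP5 (-0.11), phospho-CBX3 (0.032), STAG2 (0.021) and EZH2 (0.0088).

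With a pseudocount of 0.1 FPKM the medians were 0.38 for CBP, -2.21 for CHD4, -1.88 for HNRNPH1, -0.82 for HUR, -1.33 for PABP, -0.67 for STAG2 and -0.36 for WDR5, and the counts 3 for CBP, 1 for CTCF, 5 for NUP98, 1 for PHF8, 1 for RBBP5 and 2 for WDR5. Without a filter on low values, which adds genes near 0, the medians were 0.17 for CBP, -1.45 for CHD4, -0.27 for EZH2, -1.16 for HNRNPH1, -0.61 for HUR, -1.09 for IMP1, -0.91 for PABP, -0.52 for STAG2 and -0.19 for WDR5, and the count 0 for CBP. With a mean of at least 1 FPKM over all libraries, which leaves fewer genes, the medians were 0.38 for CBP, -2.19 for CHD4, -0.55 for EZH2, -0.99 for HDAC1, -2.02 for HNRNPH1, -0.94 for HUR, -1.54 for IMP1, -1.33 for PABP, -0.64 for STAG2 and -0.36 for WDR5. A fit of the protein's own libraries and the inputs alone gave counts of 0 for CBP, 10 for CBX3, 0 for CHD1, 0 for CHD7, 16 for HDAC1, 1 for NUP98, 6 for PCAF, 12 for phospho-CBX3, 0 for STAG2 and 0 for WDR5. Among genes with under 50% of their 31-base words in other genes, counts were 14 for ADAR, 0 for CBP, 1 for CHD1 and 5 for EZH2, and the median -0.33 for EZH2.

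With the replicate number as a block over all libraries the EZH2 median was -0.32, and the block, there or in input set 2 alone, where the pairing was seen, changed no count by over 1.5 times and no other median by more than the spread between replicates.

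Leaving out 1 library at a time, medians ranged from 0.17 to 0.36 for CBP, from -0.50 to -0.28 for EZH2, from -1.78 to -1.54 for HNRNPH1, from -0.92 to -0.67 for HUR, from -1.53 to -1.29 for IMP1, from 0.73 to 0.94 for PCAF, from -0.67 to -0.50 for STAG2 and from -0.38 to -0.21 for WDR5. Counts ranged from 0 to 1 for CBP, from 1 to 3 for CHD1, from 0 to 1 for CHD7, from 0 to 1 for CTCF, from 24 to 45 for DNMT1, from 3 to 14 for HNRNPU, from 2 to 7 for NUP98, from 11 to 29 for PCAF, from 0 to 5 for PHF8, from 17 to 33 for phospho-CBX3, from 0 to 2 for RBBP5, from 6 to 13 for STAG2 and from 0 to 2 for WDR5. The count for HNRNPU was 13 or 14 without its replicate 3 or any 1 library of set 1 and 3 or 4 without its replicate 1, replicate 3 of set 2 or any 1 library of set 3, that for NUP98 6 or 7 without any 1 library of set 1, and those for STAG2, PHF8 and CTCF 6 without STAG2 replicate 1, 7 without the other STAG2 library or replicate 3 of set 3, 5 without PHF8 replicate 3 and 1 without CTCF replicate 2. The cause of these changes was not tested, beyond the sets' own difference in histone mRNA. Of 39 named changes, 25 kept their call against the matched set, 38 in the fit of the protein's own libraries and the inputs alone, and 39 under the other pseudocount, centring and the filters. The shallow ADAR libraries and genes under 1 FPKM allow the least precision.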
